A study of Rattus norvegicus with 2 samples.

Results

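The 9 genes described here encode the enzymes and carriers that pass glutamate and glutamine between neurons and glia: Glul, Slc1a3, Slc1a2, Slc1a1, Slc1a4, Slc1a5, Slc38a1, Slc38a3 and Glud1. They were chosen by gene symbol among the 32662 genes for which expression was deposited, and each symbol matched 1 gene. RNA-seq with rRNA removal was done on retinas of Long-Evans rats aged 2 months. The CTRL library came from a sham-operated retina, and the IR12 library came from a retina collected 12 hours after reperfusion that ended an ischemia. With 1 library per condition there is no replicate error, so no difference below was tested and every ratio compares 2 libraries.

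Neurons of the retina, from photoreceptors to bipolar and ganglion cells, release glutamate at their synapses, and the transmitter has to be cleared for signalling to end. Müller glia, which span the whole retina, take up much of it through sodium-coupled carriers, join it to ammonia to make glutamine, and release the glutamine for neurons to turn back into glutamate. Failure of glutamate clearance is a long-studied element of excitotoxic injury in ischemic retina.

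Expression is given as FPKM, a level scaled to transcript length and to the size of the library, so levels of different genes can be set side by side. Changes are log2 ratios of (FPKM + 1), IR12 over CTRL, a scale that understates the change of genes with low values, and plain ratios of FPKM are named as such. Genes with an FPKM of at least 1 in at least 1 library counted as tested, which 13599 genes were, and their median log2 ratio was 0.02. All 9 members were tested, although Slc1a5 passed this limit only through IR12, where it was high, and so had to differ. As a sign of tissue identity, the rod transducin gene Gnat1 stood at 4027 FPKM in CTRL and 4237 in IR12.

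The members did not move as a block. At least 2-fold lower in IR12 were 2 of the 9 members, Glul and Slc1a3, where 6.12% of all tested genes were that much lower. At least 2-fold higher was 1 member, Slc1a5, where 6.56% of all tested genes were that much higher. A limit of 1.5-fold gave the same counts, 2 lower and 1 higher, against 13.7% and 14.8% of all tested genes. The other 6 members had log2 ratios between -0.31 and 0.42, and the median over the 9 was -0.25. Scaling both libraries to the same sum of FPKM (the TPM scale) shifted each gene of IR12 up by 0.65 in log2 units, leaving the pseudocount aside, and moved the median of all tested genes to 0.59. The genes at least 2-fold higher and lower were 892 and 832 as deposited, so 51.7% of both were higher, and 2817 and 436 on the TPM scale, where 86.6% were higher. The TPM scale is set largely by small RNAs, which held 67.9% of the FPKM sum in CTRL and 46.2% in IR12. The same sum without them shifted IR12 by -0.10 instead and gave 789 genes higher and 939 lower. With IR12 scaled so that the reference list had an even geometric mean, the numbers were 560 and 1407.

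**Figure D1:**
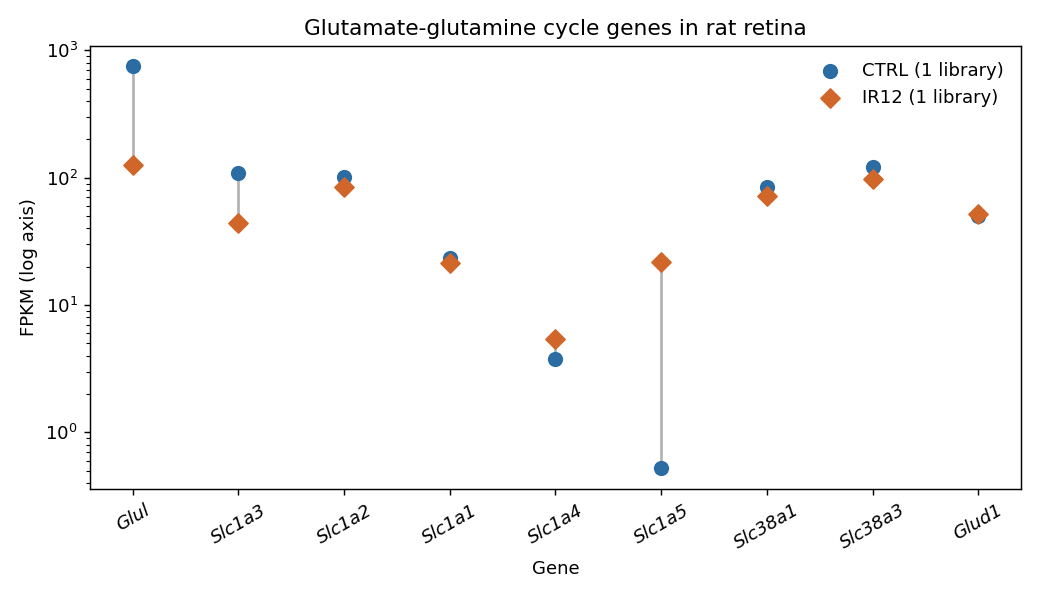
FPKM of each member in the CTRL library (circles) and the IR12 library (diamonds) on a log axis, with a line joining the values of a gene. The lines of Glul (754 to 126), Slc1a3 (108 to 44.3) and Slc1a5 (0.521 to 21.8) are the longest, and the symbols of the other genes lie close together.

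Glutamine synthetase, encoded by Glul (ENSRNOG00000049560, chromosome 13, 71331052 to 71340229 on rn6), makes glutamine from glutamate and ammonia and is the classical enzyme marker of Müller glia. Its FPKM was 754 in CTRL and 126 in IR12. The CTRL level was above that of 99.2% of genes with an FPKM of at least 1 in that library, and the IR12 level above that of 94.1%. Glul was thus 6.0-fold lower in IR12 by plain ratio, with a log2 ratio of -2.57, and 98.7% of all tested genes had a higher log2 ratio. Its log2 ratio was negative under all 7 alternatives of scaling and pseudocount, from -2.94 to -1.93. Among 808 genes other than small RNAs with an FPKM of at least 100 in CTRL, 38 were at least 2-fold lower in IR12 and Glul was number 8 from the lowest ratio. By FPKM lost it was number 7 of 13096 tested genes other than small RNAs, since its value dropped by 628.

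In bulk tissue, fewer cells of a type and less RNA per cell cannot be told apart, and marker genes of Müller glia moved with Glul. On the Müller glia list, 13 of 18 genes were at least 1.5-fold lower in IR12, 10 of them at least 2-fold, and 2 were at least 1.5-fold higher, and on the TPM scale 9 were lower and 3 higher by that fold, where 5.24% and 50.7% of all tested genes were. Kcnj10 (7.07 and 0.467), among the 13 and the 10, met the limit of 1 FPKM in CTRL alone, which made it lower by selection. The list had a median log2 ratio of -1.16, and -0.61 on the TPM scale, with no gene at 0 in both libraries. Its summed FPKM was 1908 in CTRL and 1444 in IR12, and the log2 ratio of these sums, -0.40, turned to 0.25 on the TPM scale. Car2, its most abundant gene in CTRL, went from 486 to 142. Rlbp1, the retinaldehyde-binding protein of these cells, went from 126 to 26.8, and the water channel gene Aqp4 from 48.0 to 4.16. Clu and Vim were the genes of the list at least 1.5-fold higher as deposited, Clu from 223 to 673 and Vim from 121 to 221, and these values hold up the sum. The part of cell number in the fall of Glul was not tested.

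Markers of other cells moved as well. All 8 genes of the lens list were at least 2-fold lower in IR12, where 6.12% of all tested genes were, and their median was -2.71. On the TPM scale all 8 still were, against 3.21%. Of these genes, Bfsp2 (7.42 and 0.931) was tested through CTRL alone. The list summed to 3385 FPKM in CTRL and 402 in IR12, and none of its genes was at 0. Its most abundant gene, Cryba1, went from 1614 to 196, and several crystallins are also made in retina. The genes of the list that do not encode crystallins were lower as well. Besides Bfsp2 these were Mip (16.1 and 1.67), Lim2 (10.7 and 1.52) and Bfsp1 (6.29 and 1.497). Whether the libraries held unequal amounts of lens tissue was not tested. On the astrocyte list, 4 of 6 genes were tested and all 4 were at least 1.5-fold lower, where 13.7% of all tested genes were. Among them was Gjb6 (1.41 and 0.0752), which reached 1 FPKM only in CTRL. On the TPM scale 3 of the 4 were that much lower, against 5.24%. The list summed to 757 in CTRL and 417 in IR12, mostly from Aldoc with 689 and 405. The log2 ratio of the sums, -0.86, was -0.21 on the TPM scale, and that of Aldoc, -0.77, was -0.12. Pax2 was listed at 0 in CTRL and at 0.0317 in IR12. The part of lens or astrocyte RNA in the values of Glul and Slc1a3 was not tested.

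Ratios within a library are free of the scaling between libraries. Glul over Rlbp1 was 5.99 in CTRL and 4.69 in IR12, so these 2 genes differed in their fall by a factor of 1.28. Over the summed Müller glia list, Glul went from 0.395 to 0.0870, which is 4.54-fold lower. In IR12, Clu and Vim made up 673 and 221 of the 1444 FPKM of that sum, and 223 and 121 of 1908 in CTRL. Ratios over the sum therefore fell further, or rose less, than they would without these genes. Glul over Slc1a3 went from 6.98 to 2.84, so Glul fell further than the glial carrier. The gene nearest to Glul in its pair of levels was Cryab, a small heat shock protein of lens and glia, with 718 in CTRL and 154 in IR12, at a distance of 0.30 in log2 units. Cryaa and Car2 followed at 0.57 and 0.65, and Cryaa is on the lens list.

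Uptake of glutamate by Müller glia rests mainly on GLAST (EAAT1), the product of Slc1a3 (ENSRNOG00000016163, chromosome 2, 57860834 to 57935363). Its FPKM was 108 in CTRL and 44.3 in IR12, 2.44-fold lower by plain ratio, and the log2 ratio was -1.27. Of all tested genes, 95.8% had a higher log2 ratio. Slc1a3 was lower under all 7 of these alternatives, with log2 ratios from -1.63 to -0.63, but on the TPM scale it was no longer 2-fold lower. Unlike Glul, it fell less than Rlbp1, and Slc1a3 over Rlbp1 rose from 0.858 to 1.65. Over the summed Müller glia list, which Clu and Vim hold up in IR12, it went from 0.0566 to 0.0307. Nearest in level to Slc1a3 were Cav1 (116 and 50.1), Sema7a (95.9 and 48.0) and Tfrc (106 and 52.1), at distances of 0.20, 0.20 and 0.23.

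Glul and Slc1a3 are the members at least 2-fold lower in IR12 as deposited, and the sequence before their starts is shown for that reason. It was taken from RefSeq promoter windows on GRCr8, which cover 6 of the 9 members, and not Slc1a1, Slc1a5 and Slc38a3. Of 2 listed starts of Glul the downstream one is printed, chr13:68575816-68576065 on the plus strand, and of 3 close starts of Slc1a3 the one listed at chr2:59557788-59558037 on the minus strand. Each run is the 250 bases before the start, and no letters are in capitals because none of the motifs searched was found in them.
Glul: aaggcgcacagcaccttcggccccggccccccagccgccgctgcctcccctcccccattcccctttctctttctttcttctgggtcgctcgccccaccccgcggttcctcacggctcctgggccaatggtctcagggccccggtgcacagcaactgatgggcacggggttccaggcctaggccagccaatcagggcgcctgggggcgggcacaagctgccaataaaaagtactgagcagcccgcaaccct
Slc1a3: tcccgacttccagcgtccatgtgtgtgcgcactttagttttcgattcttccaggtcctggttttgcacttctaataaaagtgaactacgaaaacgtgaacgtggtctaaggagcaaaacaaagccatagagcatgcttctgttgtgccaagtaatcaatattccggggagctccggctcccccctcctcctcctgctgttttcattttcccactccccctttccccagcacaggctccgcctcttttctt
GC content was 67.2% in the printed Glul stretch, 54.4% before its other start and 50% in the Slc1a3 stretch. Which start of Glul was used in these retinas was not tested, and the printed one was an arbitrary choice. The motifs were TGATGNAA (core of the amino acid response element), TGANTCA (AP-1), TGACGTCA (CRE) and TTCNNNGAA (STAT), each searched on both strands of the whole windows of 250 bases before to 50 after a start. Over all 33469 windows they were found in 3.98%, 7.33%, 1.83% and 8.87%.

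GLT-1 (EAAT2), encoded by Slc1a2 (ENSRNOG00000005479, chromosome 3, 92640752 to 92665644), is the main astrocytic glutamate carrier of brain, whereas in retina it is found mostly in cones and bipolar cells. Its FPKM was 101 in CTRL and 84.3 in IR12. The log2 ratio of -0.26 turned to 0.38 on the TPM scale. The log2 ratio lies well inside the spread of all genes, 28.4% of which had a lower one. Slc1a3 over Slc1a2 went from 1.07 to 0.525, so the glial carrier gene was level with Slc1a2 in CTRL and well below it in IR12. On the cone list, 4 of 6 genes were at least 1.5-fold lower as deposited and 0 on the TPM scale, with a summed FPKM of 495 in CTRL and 324 in IR12, no gene at 0, and Gnat2 as its most abundant gene (179 and 138). On the bipolar list, 2 of 7 genes were at least 1.5-fold lower as deposited and 0 on the TPM scale, with sums of 719 and 589, no gene at 0, and Trpm1 as its most abundant gene (189 and 159). Of all tested genes, 13.7% were that much lower as deposited and 5.24% on the TPM scale, so 0 among so few genes says little. The sums of both lists were higher in IR12 on the TPM scale, with log2 ratios of 0.03 for cones and 0.36 for bipolar cells. The part of these cells in the level of Slc1a2 was not tested.

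EAAC1 (EAAT3), encoded by Slc1a1 (ENSRNOG00000014816, chromosome 1, 246954980 to 247037056), is a neuronal carrier that takes up glutamate and cysteine and in retina is found in horizontal, amacrine and ganglion cells. It was the member whose listed locus overlaps another gene, RNaseP_nuc, which is at 0 in both libraries. Its FPKM was 23.5 in CTRL and 21.6 in IR12. The log2 ratio was -0.12 as deposited and 0.50 on the TPM scale. The amacrine list had 6 of 7 genes at least 1.5-fold lower as deposited, though 1 on the TPM scale, against 13.7% and 5.24% of all tested genes. The 6 include Tfap2a (1.65 and 0.478), which counted as tested through CTRL alone. The amacrine list summed to 607 in CTRL and 326 in IR12, with Calb2 as its most abundant gene (275 and 148) and no gene at 0. By the same fold, 1 of 7 tested ganglion cell genes was lower as deposited (median log2 ratio -0.15), and 1 of 2 tested horizontal cell genes (median -0.59). On the TPM scale these counts were 1 and 0. Together the 3 glutamate carriers Slc1a1, Slc1a2 and Slc1a3 summed to 233 FPKM in CTRL and 150.2 in IR12, a difference (log2 ratio -0.63) that lies mostly in Slc1a3 and is gone on the TPM scale (0.01).

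The remaining SLC1 genes among the members encode exchangers of neutral amino acids. ASCT2, the product of Slc1a5 (ENSRNOG00000015948, chromosome 1, 78710539 to 78724794), carries glutamine, serine, alanine and others, and is abundant in dividing cells. Its FPKM was 0.521 in CTRL and 21.8 in IR12. By plain ratio it was 41.9-fold higher in IR12, and its log2 ratio was 3.91 with the pseudocount of 1 and 5.39 without a pseudocount. Among 571 tested genes under 1 FPKM in CTRL, with small RNAs left out, 17 had a higher log2 ratio. These 571 all counted as tested only through IR12, so each had to be higher there.

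The CTRL value of Slc1a5 rests on few reads. Olfactory receptor genes, whose coding part is a single exon, have values that move in steps of whole reads, and they were used after the data were seen to find what 1 read is worth. Of 1027 such genes with loci of 900 to 1000 bases, 41 were above 0 in CTRL and 116 in IR12. Every value above 0 came out within 0.05 of a whole number of reads when 1 read per kilobase of effective length was worth 0.0649 FPKM in CTRL and 0.0380 in IR12. This worth was fitted to the genes taken as having 1 read, 22 in CTRL and 85 in IR12, so these genes do not check it. The worth in CTRL was 1.71 times that in IR12, which is the ratio of read depths only if FPKM was scaled to reads alone, and whether the libraries were also scaled to each other is not given in the sources used here. If the same worth holds for Slc1a5, it had about 8.03 reads per kilobase in CTRL and 574 in IR12. The CTRL value is the fewest reads per kilobase of any member, so the fold of Slc1a5 is imprecise, while its IR12 level, close to that of Slc1a1, is not set by the CTRL value.

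Leukocyte and glial injury genes rose with Slc1a5. All 8 genes of the leukocyte list were at least 1.5-fold higher in IR12, where 14.8% of all tested genes were. Their summed FPKM was 11.8 in CTRL and 128 in IR12. Of the 8 genes, 7 were under 1 FPKM in CTRL, so they counted as tested only through IR12 and had to be higher there. Lyz2, the exception, was the most abundant (9.73 and 76.9), and S100a8, listed at 0 in CTRL, had 12.8 in IR12. On the glial injury list, 10 of 11 genes were at least 1.5-fold higher, against the same 14.8%, with sums of 227 and 710.1. Vim, which the Müller glia list also holds, was the most abundant in CTRL, and Edn2 was listed at 0 in CTRL and at 1.97 in IR12. The limit of 1 FPKM was passed only through IR12 by 5 of these 11. On the TPM scale all 8 leukocyte and all 11 glial injury genes were higher by 1.5-fold, where 50.7% of all tested genes were. The part of either group of cells in the level of Slc1a5 was not tested.

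ASCT1, encoded by Slc1a4 (ENSRNOG00000005248, chromosome 14, 104581190 to 104612597), exchanges serine, alanine and cysteine. Its FPKM was 3.75 in CTRL and 5.38 in IR12, with a log2 ratio of 0.42 and a range of 0.12 to 0.93 over the alternatives. In CTRL it was the more abundant of the pair of exchangers, with Slc1a5 over Slc1a4 at 0.139, and in IR12 this ratio was 4.06. The order of these exchangers was thus turned around in a ratio that no scaling affects.

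Glutamine itself is moved by system A and system N carriers of the SLC38 family. SNAT3, encoded by Slc38a3 (ENSRNOG00000016827, chromosome 8, 116406241 to 116422366), is a system N carrier through which glia release glutamine. Its FPKM was 122 in CTRL and 98.1 in IR12, with a log2 ratio of -0.31 that was 0.33 on the TPM scale. It was the member with the next highest level after Glul in both libraries. Slc38a3 over Rlbp1 went from 0.969 to 3.66, a rise by a factor of 3.78. Over the summed Müller glia list, which Clu and Vim hold up in IR12, it went only from 0.0639 to 0.0679. SNAT1, encoded by Slc38a1 (ENSRNOG00000005291, chromosome 7, 137975549 to 138039984), is a system A carrier that brings glutamine into neurons. Its FPKM was 85.2 in CTRL and 71.3 in IR12, with a log2 ratio of -0.25 that was 0.39 on the TPM scale. Slc38a1 over Slc38a3 was 0.698 in CTRL and 0.727 in IR12, so these carriers of glutamine release and uptake kept nearly the same proportion.

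Amino acid shortage and stress of the endoplasmic reticulum act on many amino acid carriers through ATF4 at amino acid response elements. Among the 6 members with a promoter window, Slc1a4 and Slc38a1 held the core motif, as did 4.16% of all 27457 genes with a window. The 30 bases around the motif are shown on the minus strand of GRCr8 with the match in capitals. The Slc1a4 stretch is chr14:98761779-98761808, with the match starting 235 bases before the start, and the Slc38a1 stretch is chr7:129681525-129681554, with the match starting 142 bases before the start.
Slc1a4: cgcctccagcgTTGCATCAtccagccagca
Slc38a1: gggggaaactcTGATGCAAccaaccagtcc
The Slc38a1 window also held an AP-1 match, TGAATCA, farther from the start, and no CRE or STAT match was found in any member's window. A match describes letters and shows no binding, and neither gene was past 1.5-fold as deposited. On the amino acid response list, 7 of 14 genes were at least 1.5-fold higher and 3 at least 1.5-fold lower, against 14.8% and 13.7% of all tested genes, with a median log2 ratio of 0.49. After scaling to reference genes 3 were higher and 4 lower by that fold, against 7.73% and 27.9%, with a median of 0.16. On the TPM scale 9 were higher and 1 lower, against 50.7% and 5.24%, with a median of 1.01. Atf4, its most abundant gene, had 395 FPKM in CTRL and 652 in IR12. Asparagine synthetase, encoded by Asns, had 17.4 and 46.1, whereas Psat1 of serine synthesis had 45.5 and 14.2. Genes of the list thus differed in direction as deposited.

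Glutamate dehydrogenase, encoded by Glud1 (ENSRNOG00000057367, chromosome 16, 10662021 to 10695557), links glutamate to the citric acid cycle in mitochondria. Its FPKM was 50.3 in CTRL and 52.4 in IR12. The log2 ratio of 0.06 was -0.31 after scaling to reference genes and 0.69 on the TPM scale. It was the member nearest to no change as deposited. Glul over Glud1 consequently went from 15.0 in CTRL to 2.40 in IR12, a 6.24-fold lower ratio of the enzyme that makes glutamine to the one that oxidises glutamate.

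**Figure D2:**
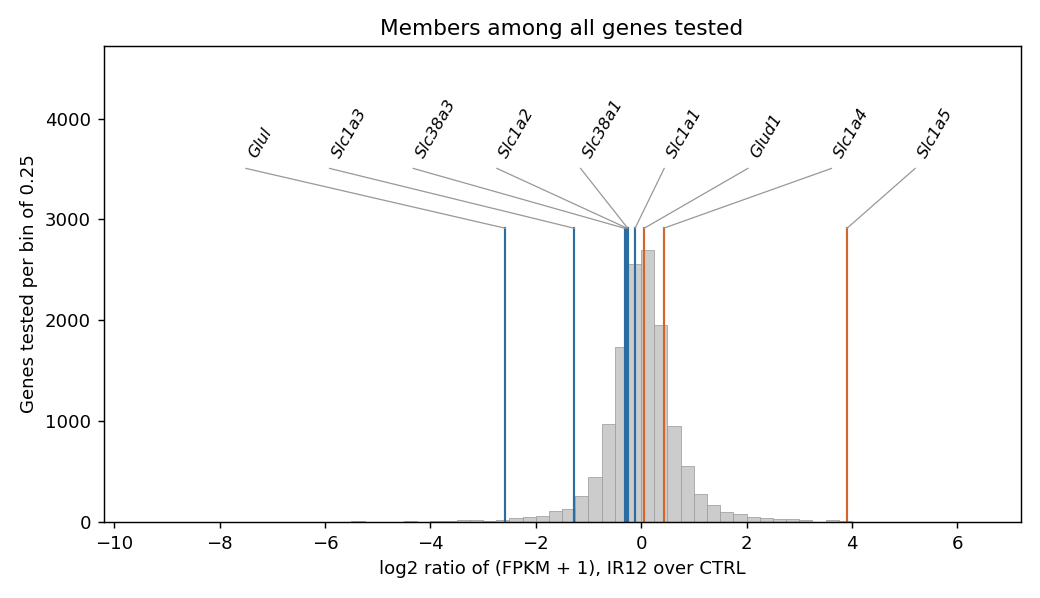
Histogram of the log2 ratio of (FPKM + 1), IR12 over CTRL, for 13599 tested genes in bins of 0.25, with a vertical line for each member (blue below 0, orange above 0). Glul (-2.57), Slc1a3 (-1.27) and Slc1a5 (3.91) lie in the tails, and the other members lie near the peak.

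The members summed to 1248 FPKM in CTRL and 525 in IR12. The sums had a log2 ratio of -1.25, or -0.60 on the TPM scale. Without Glul the sums were 495 and 399, and their log2 ratio of -0.31 turned to 0.34 on the TPM scale. Glul held 60.4% of the sum in CTRL and 23.9% in IR12, shares that no scaling affects. The share of Slc38a3 went from 9.77% to 18.7%, that of Slc1a2 from 8.12% to 16.1% and that of Slc38a1 from 6.82% to 13.6%. Slc1a3 held 8.65% and 8.44%, an almost even share, because its fall was close to that of the whole sum. Slc1a5 went from the lowest share, 0.0417%, to 4.16%, and Slc1a4 was then lowest with 1.02%.

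**Figure D3:**
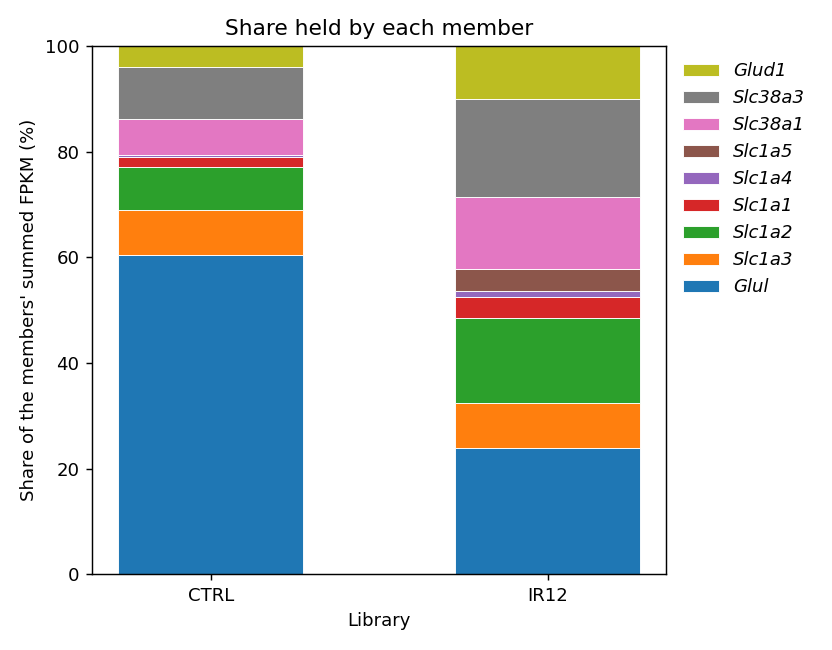
Stacked bars of the share (%) of the members' summed FPKM held by each gene in the CTRL and the IR12 library. Glul takes 60.4% of the bar in CTRL and 23.9% in IR12, and Slc38a3, Slc1a2 and Slc38a1 take more of the bar in IR12.

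A further list holds other genes of glutamate and glutamine handling. Of 24 genes listed, Aldh4a1 was not matched by symbol, Slc25a22 and Aldh18a1 were listed at 0 in both libraries, and 19 were tested. Hprt1 and all 37 mitochondrial genes are also listed at 0, so 0 in this table was not read as absence of the transcript. At least 1.5-fold lower were 2 of the 19, and 2 were at least 1.5-fold higher, against the same 13.7% and 14.8% of all tested genes. These counts turned on the scaling, with 1 lower and 8 higher on the TPM scale, where 5.24% and 50.7% of all tested genes were, but 9 lower and 1 higher after scaling to reference genes, where 27.9% and 7.73% were. Without a pseudocount 4 were lower, where 16.7% of the 13265 tested genes above 0 in both libraries were. Among these 4, and among the 9, were Slc17a8 and Slc25a18 (1.03 and 0.431 FPKM). Both reached 1 FPKM only in CTRL and so had to be lower as deposited. Slc17a8 was also among the 2 lower as deposited and was the 1 lower on the TPM scale. The median log2 ratio of the 19 was -0.15, and scaling to TPM made it 0.46. The list summed to 1366 FPKM in CTRL and 1258 in IR12, and the log2 ratio of -0.12 between the sums became 0.53 with TPM.

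The vesicular glutamate carrier gene Slc17a7, used by photoreceptors and bipolar cells, was the most abundant of the list, with 499 and 449. Slc17a8, found in a class of amacrine cells, was the gene of the list that was at least 2-fold lower, from 2.19 to 0.551, but it reached 1 FPKM only in CTRL and so had to be lower. Gad2, which makes GABA from glutamate, went from 28.7 to 15.4, and its partner Gad1 from 107 to 82.7. The photoreceptor and bipolar cell carrier gene Slc1a7 (EAAT5) had 27.2 and 20.2.

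The genes at least 1.5-fold higher were Slc3a2, from 50.5 to 99.9, and Slc25a13, a mitochondrial aspartate-glutamate carrier, from 4.31 to 7.24. Slc3a2 encodes the heavy chain that pairs with several exchangers, among them the cystine-glutamate exchanger Slc7a11, which had 19.2 and 19.4. Slc38a2, the system A carrier that responds to amino acid supply in many cells, had 52.4 and 53.8. Among aminotransferases, Got1 had 149 and 115 while Got2 had 116 and 147, so the cytosolic and mitochondrial forms differed in direction as deposited, although both were higher on the TPM scale and lower after scaling to reference genes. Gls2 had 6.19 and 3.93, Slc17a6 had 39.0 and 27.4, Gpt had 8.27 and 9.98, and Slc25a12 had 23.5 and 29.7. Low in both libraries were Slc1a6, Slc38a5, Slc38a7, Gpt2 and Slc25a18, with FPKM of at most 3.07 in either library.

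**Figure D4:**
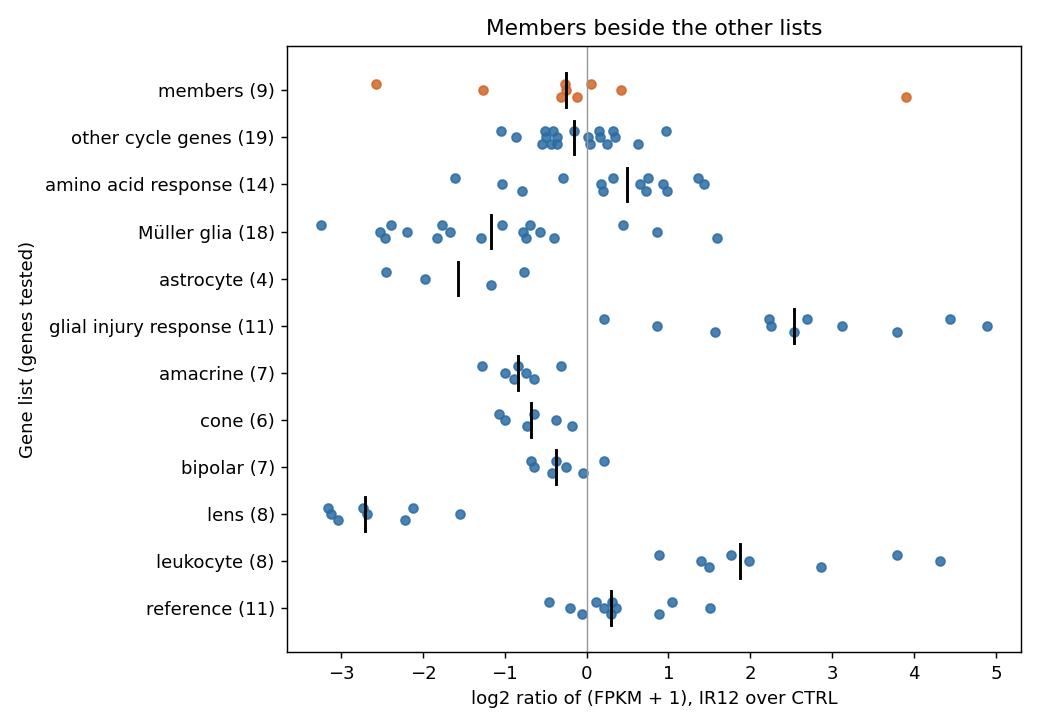
Each point is the log2 ratio of (FPKM + 1), IR12 over CTRL, of a tested gene, in rows by gene list with the number of genes in brackets and the median as a black bar. The members spread from -2.57 to 3.91 around a median of -0.25, the other cycle genes lie between -1.04 and 0.97, and the Müller glia, astrocyte and lens lists lie mostly below 0.

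On the reference list, 11 of 12 genes were tested and 3 were at least 1.5-fold higher in IR12, where 14.8% of all tested genes were. The list's median was 0.29 as deposited and 0.84 on the TPM scale. Gapdh had 716 and 690.1 FPKM, Actb 260 and 537, and B2m 65.7 and 188. Genes often used as references were thus uneven, and scaling by them lowers every ratio of IR12. After that scaling Slc1a2, Slc38a1 and Slc38a3 joined Glul and Slc1a3 at 1.5-fold lower or more, with log2 ratios of -0.63, -0.62 and -0.68.

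**Figure D5:**
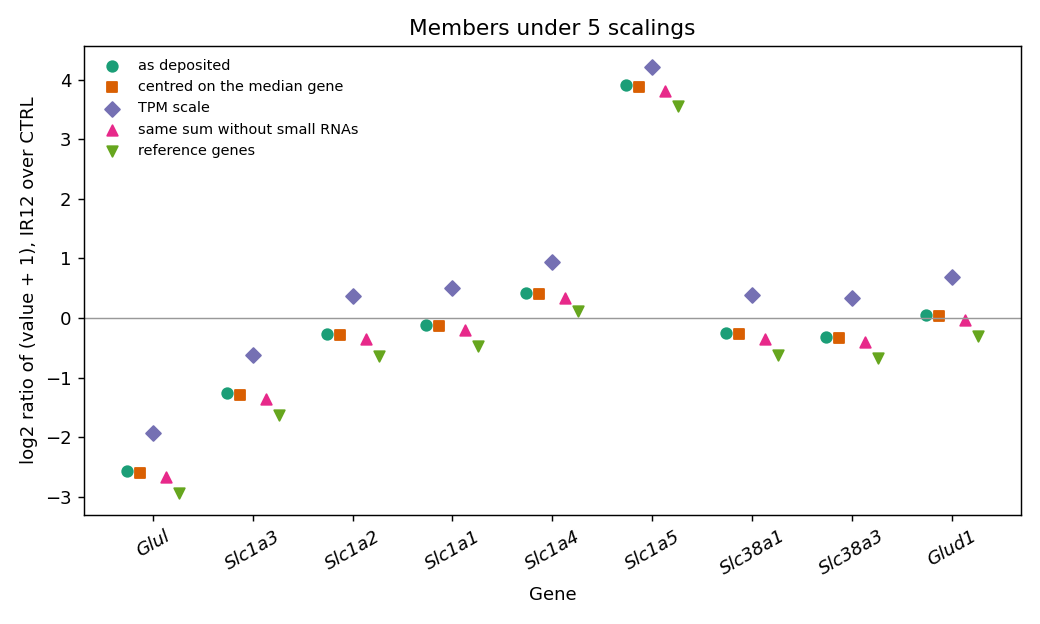
Log2 ratio of (value + 1), IR12 over CTRL, of each member as deposited and under 4 other scalings of the libraries. Glul and Slc1a3 stay below 0 and Slc1a4 and Slc1a5 above 0 under each, while Slc1a2, Slc1a1, Slc38a1, Slc38a3 and Glud1 change sign with the scaling.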

How the data were processed

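RNA of rat retina was sequenced as 1 CTRL and 1 IR12 library. The authors deposited FPKM per gene for both, on rn6, and the submitters' processing notes name STAR 2.5.2b and Cuffdiff 2.2.0. The kit is called stranded total RNA in the sample labels but stranded mRNA in the series description, and the strand used in counting is not given in the sources used here. Starts were printed 1 higher than listed, since 1022 of 1027 olfactory receptor loci then have a length that is a multiple of 3. Samples were grouped by label, and 0 other columns of per-sample values were left unused. Log2 ratios used a pseudocount of 1, and genes with an FPKM of at least 1 in either library counted as tested. Small RNAs were recognised by symbol. The members and gene lists were chosen with earlier results of these data known. Named genes are the members, the other cycle genes, the genes of each list that its counts rest on, its most abundant gene and those at 0, and the 3 genes nearest in level to Glul and to Slc1a3, by Euclidean distance in log2(FPKM + 1) of both libraries with members and small RNAs left out. Gnat1, Gapdh, Actb and B2m were named after their values were seen. Some named genes are not reported here. Protein identity between the carriers was not analysed here. Counting was tested on simulated data. Python 3.11.15, numpy 2.4.6, pandas 2.3.3 and matplotlib 3.10.9 were used.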

Additional observations from a re-analysis of the deposited data

How the results depend on the processing

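The alternatives were pseudocounts of 0.1 and 0, centring on the median gene, the TPM scale, the same sum without small RNAs, scaling to the 11 reference genes above 0, a minimum FPKM of 5 and none. The same sum without small RNAs and the lens list was added after the data were seen. A value was taken as moved when it changed by more than 1.5 times, and of 131 values that an alternative could change 15 did, 12 of these on the TPM scale. In log2 units this limit is 0.58. Centring, the sums without small RNAs and reference genes shifted IR12 by only -0.02, -0.10, -0.11 and -0.37, and the TPM scale by 0.65. No gene ratio, median or sum could count as moved under the smaller shifts, and Glud1 changed sign under 3 of them. On the TPM scale the members at least 1.5-fold higher were 3 (Slc1a5, Slc1a4 and Glud1) where 50.7% of all tested genes were, and 1 member, Glul, was at least 2-fold lower where 3.21% were. The median log2 ratio became 0.39 for the members and 0.46 for the other cycle genes, and the summed FPKM of the members had a log2 ratio of -0.60. With reference genes, 5 members were at least 1.5-fold lower where 27.9% of all tested genes were. These shifts follow from the scale applied to IR12, 0.65 and -0.37 on the log2 scale. Which scaling is right was not tested. FPKM lacks read counts, so no counting interval is given, and the depth step assumes that 1 read is worth the same per kilobase in all genes.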

Other observations

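Marker lists of other retinal cells gave these values as deposited. The 9 rod genes had a median log2 ratio of 0.00 and the 7 tested ganglion cell genes one of -0.15, with Pou4f2 at least 2-fold lower (3.41 and 1.06 FPKM). The 2 tested horizontal cell genes had a median of -0.59. Medians of the microglia and pigment epithelium lists were -0.04 and -0.02, over 6 and 4 tested genes, with Rpe65 of the latter at least 2-fold lower (11.1 and 4.88 FPKM). Of the 6 microglia genes, 2 reached 1 FPKM only in CTRL and so had to be lower. The other 4 had log2 ratios of -0.11, 0.03, 0.38 and 0.55. The 5 tested endothelial genes had a median of 0.24, with Flt1 at least 2-fold higher (12.3 and 32.3 FPKM). Of these 5, 1 was tested through IR12 alone and so had to be higher. The blood list summed to 28.4 FPKM in CTRL and 52.6 in IR12.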
